A study of Mus musculus with 16 samples.

Results

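The 8 genes described here encode paired isoforms of 4 nuclear-encoded subunits of cytochrome c oxidase, the terminal complex (complex IV) of the respiratory chain, measured in brown and gonadal white fat of mice lacking the glycolytic enzyme phosphoglycerate mutase 1 (Pgam1) in adipocytes. Cox4i2, Cox6a2, Cox7a1 and Cox8b are the muscle/brown fat isoforms of subunits IV, VIa, VIIa and VIII as grouped here, and Cox4i1, Cox6a1, Cox7a2 and Cox8a are their ubiquitous partners. They were chosen by gene name and subunit from 22911 genes with a named probe, and each had 1 probe, so that no second probe of a gene could be compared. The choice was made with earlier results of these arrays known, among them the measured genotype differences of Cox6a2 in both tissues. The genotype differences of Cox6a2 are therefore given as a description with no test, and counts over the 8 genes are not read as evidence.

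Expression was measured on 16 single-colour arrays, 4 in each of 4 groups of male mice: interscapular brown adipose tissue (BAT) and gonadal white adipose tissue (gWAT) from Adipo-Pgam1 KO mice and from littermate controls. Adipo-Pgam1 KO mice carried Adipoq-Cre, in which the adiponectin promoter drives Cre recombinase in adipocytes, together with floxed Pgam1 on both alleles, and controls carried the same floxed alleles without Cre. The strain was labelled C57BL/6NCrSlc. Mice were 16 weeks old, except replicate 4 of the KO groups of both tissues, which were 14 weeks old. Values are log2 signals over the 75th percentile of each array, so that 0 is that percentile and 1 unit is a doubling.

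Cytochrome c oxidase passes electrons from cytochrome c to oxygen and pumps protons across the inner mitochondrial membrane. Its catalytic core is encoded by mitochondrial DNA, and the small nuclear-encoded subunits surround that core and tune its activity and assembly. Several of these exist in a ubiquitous form and in a form enriched in heart and skeletal muscle; in rodents Cox7a1 and Cox8b are also abundant in brown fat, a tissue rich in mitochondria that oxidises fuel to make heat. Cox4i2 is best known as the lung-enriched and oxygen-responsive form of subunit IV.

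The targeted gene was checked first. In BAT, Pgam1 was between 7.82 and 8.07 on the control arrays and between 6.03 and 6.43 on the KO arrays, a fall of 1.74 (standard error, SE, 0.11; limma adjusted p = 1.11e-05). In gWAT it was between 5.07 and 5.67 on the control arrays and between 5.95 and 6.50 on the arrays labelled KO, a difference of 0.95 (SE 0.19; adjusted p = 0.0139) in the direction opposite to a deletion. The gWAT group is therefore called the arrays labelled Adipo-Pgam1 KO, and each of its directions rests on that label. The 75th percentile signal was 401 to 451 on the BAT control arrays and 570 to 916 on the other 12. All 12 brown adipocyte markers were well above background on every BAT array, 7 on every control gWAT array and 9 on every gWAT array labelled KO. Of 8 white adipocyte markers 7 were so on every gWAT array and 4 on every BAT array. The arrays lay on 3 slides: BAT control replicates 1 to 3 on the first, BAT control replicate 4 with the BAT KO arrays and gWAT control replicates 1 to 3 on the second, and gWAT control replicate 4 with the gWAT arrays labelled KO on the third.

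Cox6a2, the heart and skeletal muscle isoform of subunit VIa, had the largest rise of all 14280 genes tested in BAT and of all 14149 tested in gWAT. In control BAT its signals were -4.74, -4.98, -4.44 and -4.12, and it was well above background on replicate 4 alone. In BAT of Adipo-Pgam1 KO mice they were 4.64, 4.73, 5.001 and 4.56. The KO arrays lay close together and far above all control arrays. Because control BAT gives only an upper limit, the rise under this scaling was at least 399-fold. That is a difference of 8.64 against the mean of the lowest reliable signals of the control arrays. The measured means of 4.73 and -4.57 differed by 9.31. The measured difference was 7.44 with normexp background correction, 8.71 by Actb and Rplp0, 9.41 with quantile normalization and 9.81 by the spike-in probes.

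In gWAT, where Cox6a2 was well above background on all 8 arrays, the control signals were -2.27, -1.50, -2.95 and -2.09. On the arrays labelled Adipo-Pgam1 KO they were 4.40, 3.99, 4.36 and 3.40. The groups did not overlap, and their means differed by 6.24 (SE 0.33), a 75.4-fold difference. Under this scaling the rise in BAT, taken at its lower limit, was still 2.40 larger on the log2 scale than that in gWAT. With normexp the measured rises were 7.44 in BAT and 5.59 in gWAT. In the controls Cox6a2 was the only 1 of the 8 isoforms that was lower in BAT than in gWAT. Under this scaling it was lower by at least 3.26-fold (measured difference -2.37, and -1.09 with normexp).

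**Figure D1:**
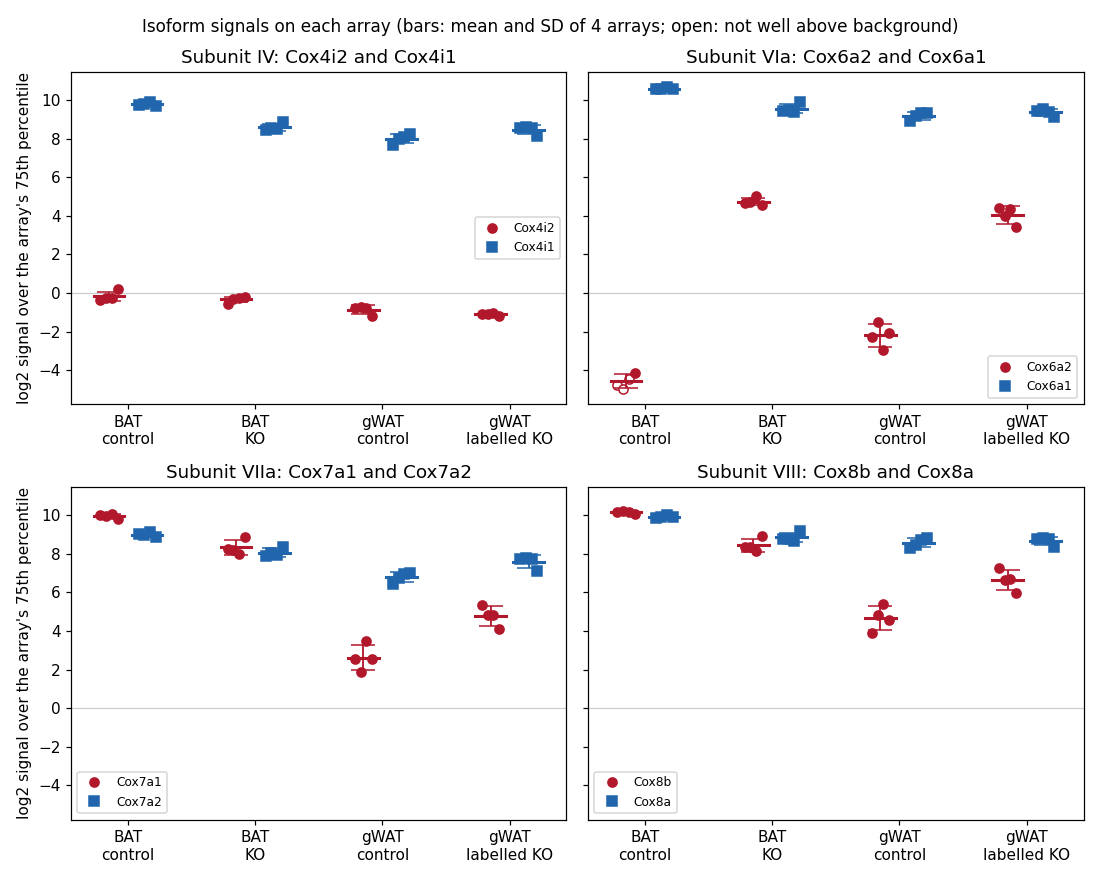
Log2 signal over the 75th percentile of the array (vertical axis) for both isoforms of each subunit on 4 arrays in each of 4 groups, with the mean and SD; open circles mark Cox6a2 where it was not well above background. Cox6a2 moved from -4.57 to 4.73 in BAT, Cox7a1 and Cox8b were lower in KO than in control BAT and higher in gWAT labelled KO than in control gWAT, and Cox4i2 stayed between -1.18 and 0.19 on every array. Levels are not comparable between genes, since each has its own probe.

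Its ubiquitous partner Cox6a1 went the other way in BAT. Control signals were 10.54, 10.56, 10.67 and 10.57, and KO signals were 9.40, 9.50, 9.39 and 9.87, with no overlap. The difference was -1.04 (SE 0.12; adjusted p = 0.000127). In gWAT the control arrays (8.89, 9.15, 9.32 and 9.33) and the arrays labelled KO (9.43, 9.53, 9.37 and 9.12) overlapped, and the difference of 0.19 (95% confidence interval -0.15 to 0.53) did not pass the threshold (adjusted p = 0.405).

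Skeletal muscle also expresses Cox6a2, so muscle markers were read beside it. Of 22 markers, all were on the array. Their summed log2 signal was 5.64 to 5.86 in control BAT and 3.65 to 7.72 in KO BAT, and the KO arrays fell into a pair with Ckm (muscle creatine kinase) well above background, replicates 1 and 3, and a pair without, replicates 2 and 4. On KO replicates 2 and 4 the summed muscle signal was 3.65 and 4.11, below every control array, while Cox6a2 was 4.73 and 4.56. In control BAT most of the sum was Myl1, a myosin light chain at a mean of 5.41 and the only marker called lower (-2.04). Without Myl1, left out after its values were seen, the sum was 3.10 to 3.44 in control BAT, 7.51 and 5.24 on KO replicates 1 and 3, and 2.78 and 2.99 on KO replicates 2 and 4. Without replicates 1 and 3, an alternative chosen after seeing the markers, the measured Cox6a2 difference in BAT was 9.22 in place of 9.31, that of Cox7a1 was -1.42 (adjusted p = 0.00239) and that of Cox8b -1.51 (adjusted p = 0.00123). Of 14 muscle markers tested in BAT 11 had positive differences (median 1.28), and 4 were called higher and 1 lower, beside 27.5% and 34% of all genes. Those called higher were the troponins Tnni2 (4.05) and Tnnc2 (3.55), the calcium release channel Ryr1 (not well above background on any control array) and Acta1 (skeletal actin), which differed by 3.11 (SE 1.05; adjusted p = 0.0291). Mylpf (fast myosin light chain) differed by 1.54 (SE 1.14; adjusted p = 0.267).

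In gWAT the summed muscle signal was 4.52 to 5.62 in controls and 5.52 to 6.20 on the arrays labelled KO. Without Myl1 it was 3.32 to 4.98 and 5.19 to 6.02, without overlap. Ckm was well above background on none of the 8 gWAT arrays. Of 15 muscle markers tested in gWAT 6 had positive differences (median -0.09). None was called higher and 1, Myl1, lower (-0.70), beside 9.99% and 7.85% of all genes. Acta1 differed by 2.20 (adjusted p = 0.0503), being 1.33 to 4.56 in controls and 4.88 to 5.85 on the arrays labelled KO. On the latter arrays Acta1 made up most of the sum without Myl1, so that sum does not stand for the muscle markers as a whole. These values state what moved with Cox6a2; beyond them, the part of other cells in its signal was not tested. In tissue RNA, fewer cells of a type and less RNA per cell cannot be told apart, for Cox6a2 and for all isoforms that follow.

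**Figure D2:**
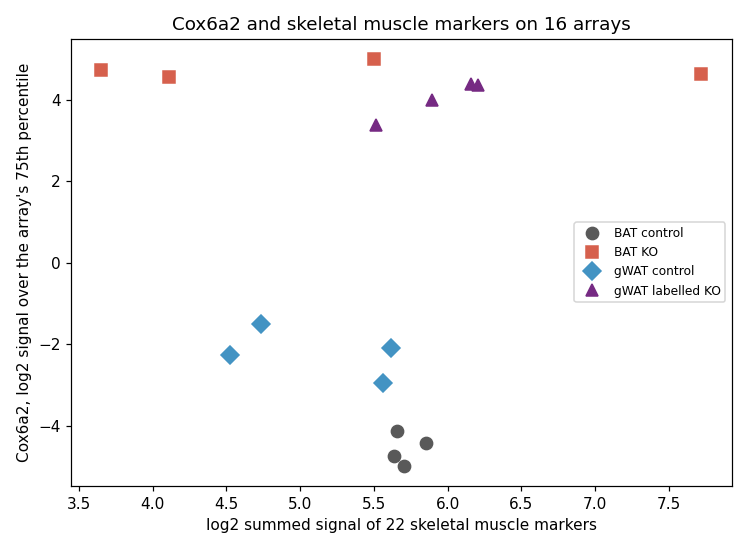
Cox6a2 signal (vertical axis, log2 over the 75th percentile of the array) against the log2 summed signal of 22 skeletal muscle markers (horizontal axis), 1 point for each of 16 arrays. The BAT KO arrays span 3.65 to 7.72 on the muscle axis and 4.56 to 5.001 for Cox6a2. Myl1 makes up most of the sum in control BAT. Without it the gWAT sums were 3.32 to 4.98 in controls and 5.19 to 6.02 on the arrays labelled KO, without overlap. Acta1 alone was 1.33 to 4.56 and 4.88 to 5.85 on these arrays and made up most of the second sum.

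Cox7a1, the muscle and brown fat isoform of subunit VIIa and a marker of brown adipocytes, fell in BAT and rose in gWAT. In BAT the control signals were 10.01, 9.94, 10.04 and 9.82 and the KO signals 8.24, 8.18, 8.01 and 8.89. The groups did not overlap, with KO replicate 4 nearest to the controls. The difference was -1.62 (SE 0.18; adjusted p = 0.000107), a 3.08-fold lower signal, the 535th largest fall of 14280 genes. In gWAT the controls gave 2.55, 1.88, 3.46 and 2.53 and the arrays labelled KO 5.35, 4.84, 4.81 and 4.13. Again no array of one group reached the other. The rise of 2.18 (SE 0.35; adjusted p = 0.00708) was 4.52-fold. With slide fitted as a block the rise was 2.25 and did not pass the threshold.

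The gain in gWAT left Cox7a1 far from its level in BAT. In controls it was 7.35 higher in BAT than in gWAT (SE 0.29; adjusted p = 6.47e-07), the 14th largest difference of 14304 genes. Between the KO arrays of BAT and the arrays labelled KO of gWAT the difference was 3.54 (SE 0.28; adjusted p = 2.78e-05).

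The ubiquitous partner Cox7a2 followed Cox7a1 in both tissues by smaller amounts. In BAT it was 9.003, 8.96, 9.13 and 8.89 in controls and 7.89, 8.05, 7.95 and 8.37 in KO mice, without overlap. The difference was -0.93 (SE 0.12; adjusted p = 0.000266). In gWAT it was 6.44, 6.76, 6.95 and 6.98 in controls and 7.71, 7.80, 7.75 and 7.09 on the arrays labelled KO, again without overlap. The difference of 0.80 (SE 0.20) passed narrowly (adjusted p = 0.0277), and it did not pass when any 1 of 5 arrays was left out, namely control replicates 1 and 2 and the labelled KO replicates 1, 2 and 3 (adjusted p between 0.0551 and 0.0775).

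Cox8b, the muscle and brown fat isoform of subunit VIII, had a pattern close to that of Cox7a1. BAT controls were 10.14, 10.21, 10.15 and 10.06 and BAT KO arrays 8.36, 8.34, 8.16 and 8.93. The difference was -1.70 (SE 0.16; adjusted p = 4.76e-05), without overlap. In gWAT the controls were 3.90, 4.84, 5.39 and 4.58 and the arrays labelled KO 7.28, 6.64, 6.69 and 5.96. All 4 of these lay above all 4 controls, and the rise was 1.96 (SE 0.35; adjusted p = 0.0104), or 3.90-fold. With slide fitted as a block this rise was 2.06 and did not pass the threshold. Cox8b was 5.46 higher in BAT than in gWAT in controls (SE 0.28; adjusted p = 1.52e-06) and 1.80 higher between the KO groups (SE 0.28; adjusted p = 0.00102). With slide fitted as a block the second was 1.67 and not called (adjusted p = 0.0871).

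Cox8a, the ubiquitous form of subunit VIII, fell in BAT by an amount between those of Cox6a1 and Cox4i1. It was 9.86, 9.89, 10.03 and 9.93 in BAT controls and 8.76, 8.74, 8.68 and 9.19 in BAT of KO mice. The difference was -1.08 (SE 0.13; adjusted p = 0.000127), without overlap. In gWAT the controls (8.27, 8.48, 8.71 and 8.84) and the arrays labelled KO (8.76, 8.82, 8.75 and 8.37) overlapped. The difference there was 0.10 (95% confidence interval -0.28 to 0.48; adjusted p = 0.716), and its sign turned when slide was fitted as a block (-0.17) or gWAT control replicate 1 was left out.

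Since Cox7a1 and Cox8b moved together in both tissues, the 250 bases before the annotated start of each are shown with those of their partners, from the RefSeq promoter table (build GRCm38.p6), which held 5 of the 8 genes. Capitals mark matches to CCAAT on either strand and to the E-box CANNTG, which reads the same on both strands. The Cox7a1 stretch is chr7:30183921-30184170 on the plus strand; the others lie on the minus strand, Cox7a2 at chr9:79759854-79760103, Cox8b at chr7:140900447-140900696 and Cox8a at chr19:7217617-7217866.
Cox7a1: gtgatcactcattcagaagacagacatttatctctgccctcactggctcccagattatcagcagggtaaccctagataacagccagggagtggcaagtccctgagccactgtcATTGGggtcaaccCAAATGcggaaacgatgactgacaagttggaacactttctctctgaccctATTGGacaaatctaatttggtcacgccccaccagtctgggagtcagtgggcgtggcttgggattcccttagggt
Cox7a2: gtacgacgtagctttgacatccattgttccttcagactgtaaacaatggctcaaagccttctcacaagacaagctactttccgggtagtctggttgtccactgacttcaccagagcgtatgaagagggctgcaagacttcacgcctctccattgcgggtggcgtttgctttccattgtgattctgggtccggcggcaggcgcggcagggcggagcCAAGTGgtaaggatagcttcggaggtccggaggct
Cox8b: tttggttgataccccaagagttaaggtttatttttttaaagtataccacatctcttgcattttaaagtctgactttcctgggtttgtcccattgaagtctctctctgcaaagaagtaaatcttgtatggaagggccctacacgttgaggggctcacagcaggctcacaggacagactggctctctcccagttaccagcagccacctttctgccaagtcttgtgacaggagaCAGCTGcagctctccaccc
Cox8a: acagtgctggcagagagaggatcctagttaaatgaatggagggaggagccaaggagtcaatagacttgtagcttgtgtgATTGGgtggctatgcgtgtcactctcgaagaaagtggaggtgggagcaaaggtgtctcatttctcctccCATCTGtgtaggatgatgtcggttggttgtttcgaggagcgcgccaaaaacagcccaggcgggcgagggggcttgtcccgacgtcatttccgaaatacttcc

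Cox7a1 and Cox8b, the 2 muscle/brown fat isoforms in the table, had fewer CG dinucleotides in these windows than their partners. Cox8b had 1 and Cox8a 11, and Cox7a1 had 4 and Cox7a2 14, against a median of 6 over 32851 promoters in the table. CCAAT occurred 2 times before Cox7a1, 1 time before Cox8a and not before Cox8b or Cox7a2, and 33.8% of all promoters held it. Each of the 4 held 1 E-box, as did 66.2% of all promoters at least once. Neither the extended nuclear receptor half-site AAGGTCA (4.08% of promoters), the NRF1 core GCGCATGCG (1.45%) nor the MEF2 consensus (2.92%) was found in these 4 windows on either strand, while the NRF1 core was found before Cox6a1. A match is a description of letters in the window only.

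Subunit IV behaved unlike the other pairs. Cox4i2 was -0.36, -0.26, -0.25 and 0.19 in control BAT and -0.55, -0.31, -0.26 and -0.22 in KO BAT. The groups overlapped, and the difference of -0.16 (95% confidence interval -0.49 to 0.16) did not pass the threshold (adjusted p = 0.339). In gWAT it was -0.78, -0.72, -0.76 and -1.18 in controls and -1.08, -1.10, -1.05 and -1.17 on the arrays labelled KO. Of the 4 controls 3 lay above the labelled KO arrays and replicate 4 below them, and the difference of -0.24 (95% confidence interval -0.55 to 0.07) did not pass either (adjusted p = 0.240). These values depended on the scaling. By the spike-in probes both directions turned (0.34 in BAT and 0.25 in gWAT), with slide as a block the gWAT direction turned (0.082), and in BAT the difference was called lower by Actb and Rplp0 (-0.76, adjusted p = 0.00109) and with slide as a block (-0.52, adjusted p = 0.0312). Cox4i2 was higher in BAT than in gWAT by 0.69 in controls (SE 0.16; adjusted p = 0.00537) and by 0.77 between the KO groups (SE 0.11; adjusted p = 0.000707). The first was not called by the spike-in probes (0.53, adjusted p = 0.0804) and the second with slide as a block (0.34, adjusted p = 0.225).

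Cox4i1, the common form of subunit IV, was 9.75, 9.81, 9.89 and 9.68 in control BAT and 8.44, 8.53, 8.49 and 8.86 in KO BAT. The difference was -1.20 (SE 0.12; adjusted p = 5.02e-05), without overlap and the largest fall among the 4 ubiquitous isoforms under this scaling. In gWAT it was 7.69, 7.96, 8.08 and 8.23 in controls and 8.54, 8.61, 8.55 and 8.13 on the arrays labelled KO. Replicate 4, from the 14-week-old mouse, lay within the control range and the other 3 above it. The difference of 0.47 (SE 0.16) did not pass the threshold (adjusted p = 0.0819) and passed without that replicate (0.57, adjusted p = 0.0332).

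All 8 isoforms passed the filter on dim probes in each comparison, Cox6a2 in BAT through the KO group alone, and Cox6a2 is left out of the counts that follow. In BAT 6 of the other 7 were called, beside 61.5% of all genes. All 6 were lower, beside 34% of all genes called lower and 27.5% called higher. The same 6 did not overlap between genotypes, beside 57.1% of all genes (31.9% lower and 25.1% higher). The median difference of the 7 was -1.08, against -0.08 over all genes tested. In gWAT 3 of 7 were called, beside 17.8% of all genes, and all 3 were higher on the arrays labelled KO, beside 9.99% called higher and 7.85% called lower. These 3 did not overlap between genotypes, beside 24.2% of all genes (13.3% higher and 10.8% lower). The median there was 0.47, against 0.05. In controls all 7 were called between the tissues, beside 64.7% of all genes, and all were higher in BAT (35.4% of all genes higher and 29.3% lower). None of the 7 overlapped, beside 60.8% of all genes without overlap (33.6% higher and 27.2% lower). Between the KO groups 3 were called, all higher in BAT, beside 46.1% of all genes (23.4% higher and 22.7% lower), and 4 did not overlap, beside 43.2% of all genes (21.9% higher and 21.2% lower).

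**Figure D3:**
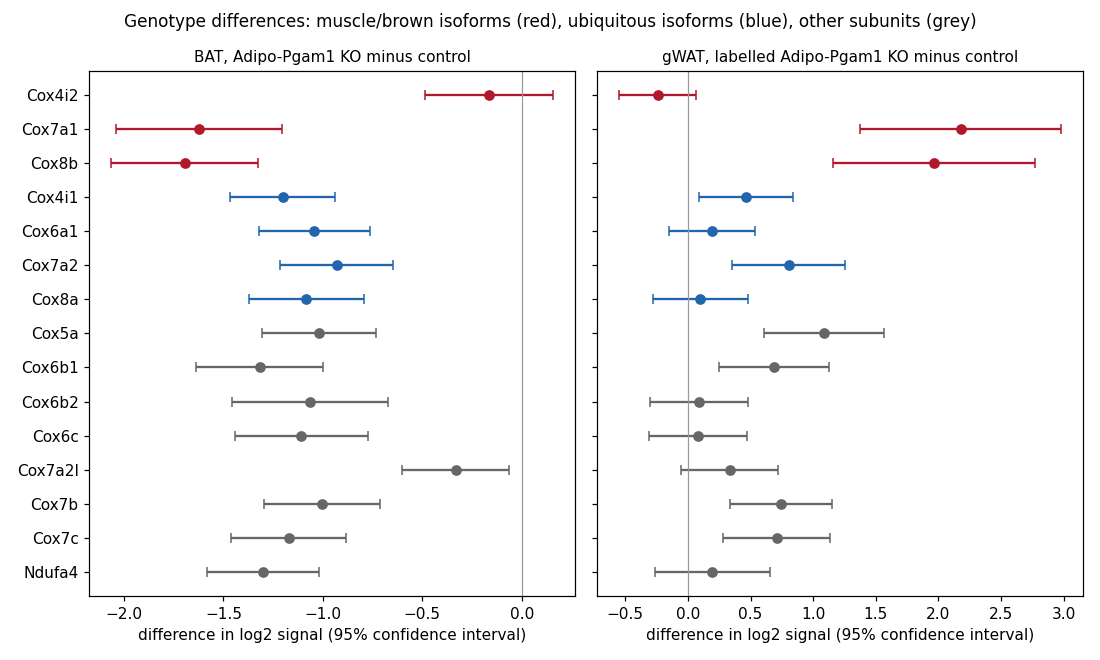
Difference in log2 signal between KO, or labelled KO, and control arrays (horizontal axis, with the 95% confidence interval) for 7 isoforms and 8 other complex IV subunits in BAT and gWAT, 4 arrays against 4; Cox6a2 (6.24 in gWAT) is left out, being off the scale. In BAT every point lies below 0 and only the interval of Cox4i2 crosses it; in gWAT Cox7a1 and Cox8b stand to the right of all others.

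The response to the genotype differed between the tissues for 6 of the 7 isoforms other than Cox6a2, beside 48.3% of all 14820 genes tested (27.4% with the higher change in gWAT and 21% with the lower). The change in gWAT minus the change in BAT was 3.80 for Cox7a1 (SE 0.43; adjusted p = 1.94e-05) and 3.66 for Cox8b (SE 0.42; adjusted p = 2.14e-05). It was 1.73 for Cox7a2, 1.67 for Cox4i1, 1.23 for Cox6a1 and 1.18 for Cox8a. The difference of Cox8a did not pass with quantile normalization (0.16, adjusted p = 0.190), with normexp (0.15, adjusted p = 0.220) or with slide as a block (0.92, adjusted p = 0.0596). For Cox4i2 the difference was -0.08 (95% confidence interval -0.49 to 0.33, adjusted p = 0.768). With slide as a block it turned to 0.60 and passed narrowly (adjusted p = 0.0499).

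The ratio of the isoforms of 1 subunit within an array does not change with the scaling of that array by a constant, so each pair was also compared as a log2 ratio, muscle/brown fat isoform over ubiquitous isoform. Its level depends on the 2 probes, and only its differences between groups are read. A two-sided exact permutation test was run on 4 arrays against 4, whose smallest p is 0.0286, in 16 comparisons (4 pairs in 4 comparisons), and p-values are unadjusted.

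For Cox7a1 over Cox7a2 the control BAT arrays gave 1.01, 0.98, 0.91 and 0.94 and the KO arrays 0.35, 0.12, 0.06 and 0.52. All KO ratios were lower, and the difference was -0.69 (SE 0.11; exact permutation p = 0.0286). In gWAT the controls gave -3.89, -4.88, -3.49 and -4.45 and the arrays labelled KO -2.36, -2.96, -2.93 and -2.96. All of these were higher than the controls, by 1.37 on average (SE 0.34; exact permutation p = 0.0286). Without any 1 of the 4 labelled KO arrays the groups still did not overlap, and the exact p was 0.0571, since another arrangement then gave as large a difference.

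For Cox8b over Cox8a the control BAT arrays gave 0.28, 0.32, 0.12 and 0.14 and the KO arrays -0.41, -0.40, -0.52 and -0.25, again apart. The difference was -0.61 (SE 0.07; exact permutation p = 0.0286). In gWAT the controls gave -4.38, -3.63, -3.32 and -4.26 and the arrays labelled KO -1.48, -2.18, -2.05 and -2.40. The difference was 1.87 (SE 0.32; exact permutation p = 0.0286), without overlap. For subunits VIIa and VIII, therefore, the muscle/brown fat isoform lost more signal than its partner in BAT and gained more in gWAT. Relative to control BAT, the ratio in control gWAT was lower by 4.11 for subunit VIII and by 5.13 for subunit VIIa, each with exact permutation p = 0.0286.

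**Figure D4:**
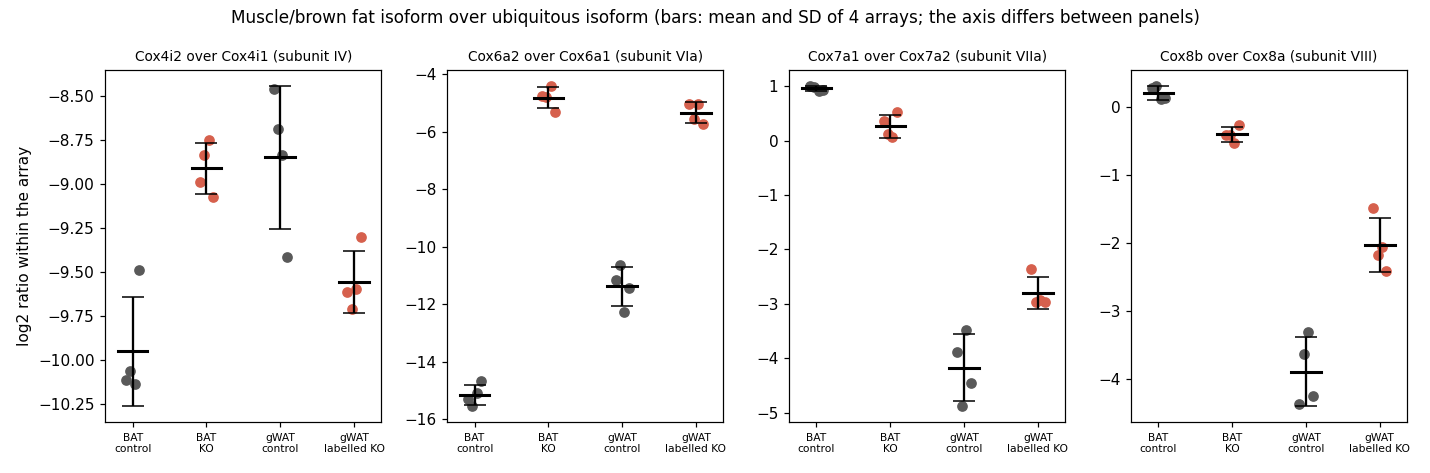
Log2 ratio of the muscle/brown fat isoform over the ubiquitous isoform on each array (vertical axis, own scale in each panel), with the mean and SD of 4 arrays in each group. For subunits VIIa and VIII the ratio is lower in KO than in control BAT and higher in gWAT labelled KO than in control gWAT; for subunit VIa it is higher in both KO groups.

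The change of the ratio differed between the tissues by 2.07 for subunit VIIa (SE 0.36) and by 2.48 for subunit VIII (SE 0.33), and by -4.30 for subunit VIa (SE 0.46) and -1.74 for subunit IV (SE 0.28). These differences between the tissues were not tested. For Cox6a2 over Cox6a1 the ratio rose by at least 9.68 in BAT on the values used here, and by 6.05 in gWAT (SE 0.38). With quantile normalization the ratio rose by 9.51 in BAT, and with normexp by 7.61. Between the KO groups it was -4.81 in BAT and -5.33 in gWAT, and the difference of 0.52 (SE 0.26) did not pass (exact permutation p = 0.143), whereas Cox7a1 over Cox7a2 differed there by 3.07 (SE 0.18) and Cox8b over Cox8a by 1.63 (SE 0.20), each with exact permutation p = 0.0286.

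For Cox4i2 over Cox4i1 the ratio rose by 1.04 in BAT (SE 0.17; exact permutation p = 0.0286), where Cox4i1 fell and Cox4i2 did not pass the threshold. In gWAT it differed by -0.71 (SE 0.22; exact permutation p = 0.0571). This pair was the least stable. Its difference in BAT was 0.17 with quantile normalization (exact permutation p = 0.371) and 0.57 within the slide that held control replicate 4 and all KO arrays.

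The size of the falls in BAT depended on how the arrays were scaled. With quantile normalization, which gives all arrays 1 distribution, the BAT difference was -0.84 for Cox7a1 and -0.90 for Cox8b, both still called. For the ubiquitous isoforms it was -0.35 for Cox4i1 and -0.27 for Cox7a2, both called, and -0.10 for Cox6a1 and for Cox8a, neither called (adjusted p = 0.294 and 0.294). With normexp background correction Cox4i1 was still called (-0.28), and Cox6a1 (-0.18, adjusted p = 0.0874), Cox7a2 (-0.18, adjusted p = 0.0911) and Cox8a (-0.13, adjusted p = 0.181) were not. Scaling by the spike-in probes gave -0.42 to -0.70 for these 4 and -1.12 and -1.19 for Cox7a1 and Cox8b, and scaling by Actb and Rplp0 gave -1.52 to -1.79 and -2.21 and -2.29.

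These scalings shifted the median difference of all genes in BAT by 0.51 (spike-in probes) and by -0.59 (Actb and Rplp0), and of the genes called in BAT 44.8% were higher as reported, 78.0% by the spike-in probes and 17.7% by Actb and Rplp0. Quantile normalization shifted the BAT median by only 0.10, less than it moved the ubiquitous isoforms. The direction of all 6 falls held under every scaling, and the fall of the ratio in BAT for subunits VIIa and VIII was -0.57 and -0.80 with quantile normalization, without overlap. In gWAT the rises of Cox7a1 and Cox8b were 2.07 and 1.86 with quantile normalization and 2.67 and 2.46 by the spike-in probes. Of the genes called in gWAT, 56% were higher as reported, 71.0% by the median (a shift of 0.12 over all genes), 96.0% by the spike-in probes (0.49) and 35.9% with slide as a block.

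**Figure D5:**
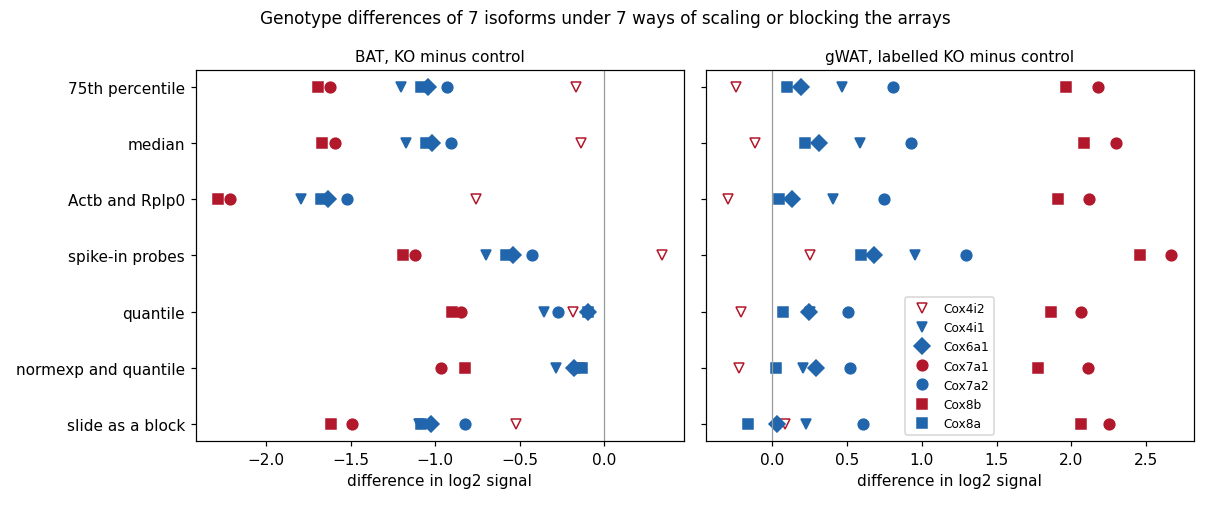
Genotype difference in log2 signal (horizontal axis) of 7 isoforms in BAT and gWAT under 7 ways of scaling or blocking the arrays (vertical axis); Cox6a2 is off the scale. Cox7a1 and Cox8b (red circles and squares) keep the largest fall in BAT and the largest rise in gWAT in every row, while Cox6a1 and Cox8a in BAT move from about -1.04 and -1.08 to -0.10 with quantile normalization.

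Slide and genotype were partly confounded in gWAT, where control replicate 4 was the only control on the slide of the arrays labelled KO. Within that slide Cox6a2 differed by 6.12, Cox7a1 by 2.25, Cox8b by 2.06 and Cox7a2 by 0.61, against a single control. With slide as a fixed block Cox7a1 and Cox8b no longer passed (adjusted p = 0.120 and 0.140), and 184 genes were called in place of 2525. Within the BAT slide that held both genotypes, also against a single control, Cox7a1 differed by -1.49, Cox8b by -1.62 and Cox6a2 by 8.86. Between the KO groups each tissue lay on its own slide, and slide and tissue cannot be told apart there without the other arrays.

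Levels over the 4 groups ran in 3 orders. Cox7a1, Cox7a2 and Cox8b were highest in control BAT, then KO BAT, then gWAT labelled KO and lowest in control gWAT, with no overlap between neighbours, although Cox7a2 did not pass between the KO groups (0.48, SE 0.19; adjusted p = 0.0634). Cox4i1, Cox6a1 and Cox8a had the same order of means, but only control BAT stood apart from its neighbour. KO BAT overlapped gWAT labelled KO, which overlapped control gWAT. KO BAT still lay above control gWAT for Cox4i1 (lowest 8.44 against highest 8.23) and Cox6a1 (lowest 9.394 against highest 9.335), but not for Cox8a. Cox6a2 was highest in KO BAT, then gWAT labelled KO, then control gWAT and lowest in control BAT, with no overlap. Its step between the KO groups (0.70, SE 0.22) passed as reported (adjusted p = 0.0317). That step did not pass by the median, by Actb and Rplp0 or by the spike-in probes. Nor did it pass with slide as a block (0.85, adjusted p = 0.334) or when any 1 of 4 arrays was left out. Cox4i2 was ordered by tissue, and the genotypes overlapped within each tissue.

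The other genes of complex IV were mostly lower in KO BAT, where 28 of 33 tested were called lower beside 34% of all genes, and mostly not called in gWAT, where 8 of 33 were called higher beside 9.99% of all genes. Of 11 further nuclear-encoded subunits 10 were on the array and 8 were tested, the germline-type subunits Cox7b2 and Cox8c being too dim, and all 8 fell in BAT, with a median of -1.09. Of these, Cox6b1, a subunit facing the intermembrane space, had the largest fall (-1.32, SE 0.14; adjusted p = 7.87e-05). In gWAT all 8 had positive differences (median 0.51), as had 7677 of all 14149 genes, and 4 were called higher and none lower. The largest rise was that of Cox5a, a subunit on the matrix side (1.09, SE 0.21, adjusted p = 0.0135). Of 25 assembly genes 24 had negative differences in BAT (median -0.67), as had 7749 of all 14280 genes, and 20 were called lower and none higher. Pet100, an assembly chaperone, had the largest fall (-1.66, SE 0.12, adjusted p = 1.52e-05). In gWAT 24 of the 25 had positive differences (median 0.40), and 4 were called higher and none lower. Cox19, a copper-handling assembly factor, had the largest rise (1.101, SE 0.22, adjusted p = 0.0144). None of these 33 genes was called higher in BAT.

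Brown adipocyte and macrophage markers were read beside these changes. Of 12 brown adipocyte markers 8 were called lower in BAT and none higher, beside 34% and 27.5% of all genes. Of 9 tested in gWAT 5 were called higher and none lower, beside 9.99% and 7.85% of all genes. Ppargc1a, a coactivator of mitochondrial genes, was called in neither tissue, with values of 0.63 in BAT and -0.52 in gWAT. Of 8 macrophage markers 7 were called higher in BAT and 2 in gWAT, beside 27.5% and 9.99% of all genes. Ucp1, the uncoupling protein of brown fat, differed by -1.27 in BAT (SE 0.17; adjusted p = 0.000308) and Cidea, a lipid droplet protein of brown adipocytes, by -1.23 (SE 0.14; adjusted p = 0.000121). In gWAT Cidea was 3.41 higher on the arrays labelled KO (SE 0.33; adjusted p = 0.00126) and Ucp1 was well above background on 3 of 4 of them and on none of 4 control arrays. The summed signal of 8 macrophage markers was 4.73 to 5.28 in control BAT and 6.55 to 7.17 in KO BAT, and Adgre1, a macrophage surface receptor, rose by 2.84 (SE 0.25; adjusted p = 3.16e-05). In gWAT the sum was 6.01 to 6.47 in controls and 6.14 to 7.74 on the arrays labelled KO, and Adgre1 differed by 0.73 (adjusted p = 0.236). The summed signal of 5 adipocyte markers was 10.66 to 10.76 in control BAT and 9.38 to 9.91 in KO BAT. The part of these shifts in the isoform values was not tested.

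Over the 16 arrays the genes whose log2 values correlated best with each muscle/brown fat isoform were named as a description; the points share tissue and genotype. For Cox6a2 they were Ephx1 (Pearson r = 0.985), Mthfd2 (0.984) and Cars (0.965), which encode an epoxide hydrolase, a mitochondrial folate enzyme and the cysteinyl-tRNA synthetase. For Cox7a1 they were Kctd1 (0.991), Idh3a (0.989) and Ldhb (0.988), and for Cox8b Idh3a (0.993), Aars2 (0.993) and Hadhb (0.993). Idh3a, a subunit of a citrate cycle dehydrogenase, was thus on both lists. For Cox4i2 they were 1700028B04Rik (0.982), Catsperd (0.974) and Sart1 (0.970). Of the 3 tested genes on each side of Cox6a2 in chromosome order, chosen after the values were seen, none was called in gWAT. In BAT Itgax and Pycard were called higher (3.67 and 1.82), beside 27.5% of all genes. Itgam, a macrophage marker (0.14), 9130023H24Rik, Armc5 and Tgfb1i1 were not called there.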

How the data were processed

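RNA from whole BAT and gWAT was hybridised by the authors to Agilent SurePrint G3 Mouse 8x60K arrays, independent samples per the labels, and scanned with Feature Extraction (version 10.7.1.1, per the submitters' processing notes). The deposited scanner files hold background-subtracted spot intensity in 1 colour; the deposited value table holds the authors' ratio of intensity to about the same percentile, made in GeneSpring, whose log2 differed from the values used here by at most 0.00504 in the median of an array. Here, log2 of the processed signal was taken over the 75th percentile of each array, irregular spots were dropped and the brightest probe of a gene was kept. Probes were named by RefSeq accession (91.9% matched a symbol). Genes well above background on all 4 arrays of a group were tested with limma 3.58.1 (R 4.3.3) with Benjamini-Hochberg adjustment over all genes tested, at a threshold of 0.05, on only the groups compared, or on all 16 arrays for the difference between tissues. The fit was tested on simulated data. Permutation tests used Python. A bound for a dim probe was taken against the lowest signal among probes well above background on each array. The normexp alternative used median spot signals. Named were the 8 isoforms, the complex IV genes that moved most, Pgam1, 6 markers, further markers singled out after their values were seen (Myl1, Tnni2, Tnnc2, Ryr1 and Ppargc1a) and the 3 best correlated genes of each muscle/brown fat isoform. The tested genes beside Cox6a2 were named too, after their values were seen. The isoforms and gene lists were chosen with earlier results of these data known. No spot was saturated, and precision is set by having 4 arrays in each group. Other alternatives are given in the closing section.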

Additional observations from a re-analysis of the deposited data

Results flagged for a closer look

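In 48 groups of 4 arrays (8 isoforms and 4 ratios), 7 had 1 array whose gap to its nearest neighbour exceeded Dixon's critical share of the group's range, where chance alone gives this in about 5% of groups. The groups are not independent, since isoforms share arrays and ratios reuse isoform values, so 7 of 48 is not read as an excess. Of the 7, 4 were replicate 4 of a KO or labelled KO group, from the 14-week-old mice. These were Cox4i1 in gWAT labelled KO at 8.13 (nearest 8.54), Cox7a2 in the same group at 7.09 (nearest 7.71), Cox8a in the same group at 8.37 (nearest 8.75) and Cox8a in KO BAT at 9.19 (nearest 8.76). The values of 8.13 and 8.37 lay within the control range, those of 7.09 and 9.19 lay between the rest of their group and the controls, and the part of age was not tested. The others were Cox4i2 in control gWAT, replicate 4, at -1.18 (nearest -0.78), the ratio of Cox4i2 over Cox4i1 in control BAT, replicate 4, at -9.49 (nearest -10.07), and the ratio of Cox7a1 over Cox7a2 in gWAT labelled KO, replicate 1, at -2.36 (nearest -2.93).

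The genotype difference in gWAT minus that in BAT passed the test for 6 isoforms other than Cox6a2. It was 1.67 for Cox4i1 (adjusted p = 2.78e-05), 1.23 for Cox6a1 (0.000147), 3.80 for Cox7a1, 1.73 for Cox7a2 (6.70e-05), 3.66 for Cox8b and 1.18 for Cox8a (0.000407). For Cox6a2, given as a description, it was -3.07, in the direction of a larger rise in BAT, with control BAT near background. For Cox8a it was 0.16 with quantile normalization (adjusted p = 0.190), 0.15 with normexp (0.220) and 0.92 with slide as a block (0.0596). The change of the ratio in gWAT minus that in BAT was -1.74 for Cox4i2 over Cox4i1 (SE 0.28), 2.07 for Cox7a1 over Cox7a2 (SE 0.36) and 2.48 for Cox8b over Cox8a (SE 0.33), beside -4.30 for Cox6a2 over Cox6a1 (SE 0.46). Permuting the genotype labels within each tissue bears on a change in either tissue, not on unequal changes, so the difference between the tissues was not tested for the ratios. All of these rest on the labels of the gWAT arrays, where Pgam1 was higher, not lower, in the labelled KO group.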

How the results depend on the processing

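Each isoform's difference was recomputed under the scalings, blocks, filters and left-out arrays listed here; of 864 such values 14 changed direction, all of differences that had not passed the threshold. Cox4i2 changed by the spike-in probes (0.34 in BAT, 0.25 in gWAT) and with slide as a block (0.082 in gWAT, also within slide 3). In the difference between tissues Cox4i2 changed by the median (0.018), by Actb and Rplp0 (0.46) and with slide as a block (0.60). The value of 0.60 itself passed the threshold (adjusted p = 0.0499). Cox8a changed in gWAT with slide as a block and within slide 3 (-0.17). Over left-out arrays Cox8a in gWAT ran from -0.0016 without gWAT control replicate 1 to 0.20. Between the KO groups Cox4i1 (-0.077), Cox6a1 (-0.022) and Cox8a (-0.030) changed by Actb and Rplp0, and Cox4i1 (-0.021) by the spike-in probes.

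Counts here include Cox6a2, whose genotype differences are a description, so its passes in them are not read as tests. In BAT 7 of the 8 isoforms passed, beside 8777 of 14280 genes tested. With normexp 4 passed (8576 genes) and with quantile normalization 5 (8582). By Actb and Rplp0 8 passed (10818 genes), and with slide as a block 8 (6677). In gWAT 4 passed, beside 2525 of 14149 genes tested. By the spike-in probes 7 passed there, and 1, Cox6a2 itself, with slide as a block. Between the KO groups 4 passed, beside 6664 of 14449 genes tested, and 1, Cox7a1, with slide as a block. Over all genes, the gWAT count of 2525 was 1384 by the median, 6017 by the spike-in probes, 184 with slide as a block, 1138 with no filter on dim probes, and by the methods' t-test 1618 after adjustment and 4673 before. With slide as a block 1783 genes were called between the KO groups in place of 6664 and 3265 in place of 7162 for the difference between tissues.

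Leaving out 1 array at a time gave 1143 to 3237 calls in gWAT, with 1188 without control replicate 2, 1582 without control replicate 3, 1168 without labelled KO replicate 1, 1285 without labelled KO replicate 2 and 1143 without labelled KO replicate 3. It gave ratios of 0.98 to 1.19 for Cox4i2 over Cox4i1 in BAT (without KO replicates 1, 2 or 3 the exact permutation p was 0.0571), -0.89 to -0.58 in gWAT, -1.29 to -0.97 between control tissues and 0.59 to 0.73 between the KO groups, and 1.14 to 1.60 for Cox7a1 over Cox7a2 in gWAT. The remaining ratios kept their side of the threshold.

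For Cox4i2 over Cox4i1, quantile normalization gave 0.17 in BAT, -0.47 in gWAT and 0.029 between control tissues, a reversal, and normexp gave 0.14, -0.43 and -0.080. With slide as a block, and within the slides holding both groups, chosen after seeing the data, it was 0.57 in BAT and -0.14 in gWAT, and between the KO groups the block gave -0.11, a reversal. Cox6a2 over Cox6a1 was 9.88 in BAT with slide as a block and within slide 2, 9.51 with quantile normalization and 7.61 with normexp. Between the KO groups it was 0.58 with quantile normalization and 0.59 with normexp, both past the threshold. With slide as a block Cox7a1 over Cox7a2 was 2.70 and Cox8b over Cox8a 1.15 between the KO groups. Other probes could not be tried, as each isoform has 1. Causes were not tested.

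Replicate numbers were shared by the groups, but same-numbered arrays did not deviate together in every pair (correlations from -0.119 to 0.514), and not every array correlated best with its own number. Both ends of that range were between the gWAT groups. Between BAT and gWAT of 1 genotype the correlations were -0.116 to 0.254. The fits between tissues took all arrays as independent, whether or not same-numbered arrays came from 1 mouse. With the replicate block 9030 genes were called between control tissues in place of 9254, 5838 between the KO groups in place of 6664, and 7043 for the difference between tissues in place of 7162. With the replicate block 1087 genes were called in gWAT in place of 2525. Of the isoforms 3 of 8 passed there in place of 4, with Cox6a2 counted in both. The ratio differences are unchanged by the block, for example -0.69 for Cox7a1 over Cox7a2 in BAT, and sign flips over 4 pairs cannot give a p below 0.125.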
